A study of Mus musculus with 22 samples.

Results

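Mouse tumours that carried the SS18-SSX fusion oncogene and also lacked Snf5 were compared by the source of the Cre recombinase that started them. The 8 libraries were chosen by their titles, 4 labelled Myf5Cre and 4 labelled TATCre, out of 22 libraries of the series. The study measured RNA in fresh-frozen tumours of 3 genotypes: SS18-SSX alone (6 libraries), Snf5-null (8 libraries) and the combination (8 libraries). Snf5 is the older name of Smarcb1. The Myf5Cre group has the genotype label "Myf5cre;SS18-SSX+/- and Snf5-/-" and the TATCre group "TATcre;SS18-SSX+/- and Snf5-/-", so both groups share the fusion and the loss of Snf5. Myf5Cre is Cre driven by Myf5, a gene of muscle progenitors, and TATCre is a Cre protein that enters cells where it is applied. The tissue label says only mouse tumour, so the site in the body, the age of the animals and the number of animals were not stated. Strain labels run from C57BL/20 to C57BL/27 over the 8 libraries, 1 number each, and strain is not compared. Libraries are named by the tag in their title: N49, 78774, 78777 and 78780 for TATCre, and N1, N2, N3 and N4 for Myf5Cre. Values for single libraries are given in that order throughout. The labels do not tie libraries to animals, and a p-value here therefore speaks only of variation among these libraries, some of which may be technical.

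Synovial sarcoma is a soft-tissue cancer defined by the fusion of SS18, a subunit of the BAF (SWI/SNF) chromatin remodelling complex, to an SSX protein. Smarcb1 is a core subunit of the same complex, and its loss drives rhabdoid tumours. In mice the Cre source sets which cells recombine: Myf5 marks progenitors of trunk and limb muscle in the embryo, while a cell-entering Cre protein acts on the cells at the place it reaches.

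Smarcb1 itself was low in every library. It stood at 3.66, 3.33, 3.33 and 2.63 CPM (counts scaled to the size of the library) in TATCre and at 0.909, 2.35, 2.48 and 1.51 CPM in Myf5Cre, a log2 fold change of -0.84 ± 0.30 (SE) that did not pass the test (edgeR adjusted p = 0.145). Tle1, a corepressor used as a marker of synovial sarcoma, was present at 159 to 188 CPM in TATCre and 184 to 221 CPM in Myf5Cre. Myf5 was uneven: 0, 0.0617, 0.0584 and 331 CPM in TATCre and 17.4, 8.91, 0 and 0.242 CPM in Myf5Cre. The level in 78780 set the sign of its fold change, which was -3.63 ± 2.27 (adjusted p = 0.454) with that library and 7.11 without it. Myod1, the muscle determination factor, was at or below 0.586 CPM in the 8 libraries. Pax7, a muscle stem cell factor, ranged from 15.3 to 62.2 CPM in TATCre and from 3.10 to 33.2 CPM in Myf5Cre, and the ranges overlapped.

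Libraries of the same group did not resemble each other equally. Total counts ran from 14834030 to 18062578. Across genes, the Pearson correlation of log2(CPM + 0.5) was 0.988 between N3 and N4 and 0.973 between N1 and N2, against 0.937 to 0.960 for the other pairs of Myf5Cre libraries. Among TATCre libraries it was 0.862 to 0.917, and the 3 lowest of these pairs all contained N49. The labels give all 8 as separate samples and they were counted as such. N3 and N4 differed by more than counting noise (chi-square per degree of freedom 35.3), which does not tell pieces of 1 tumour from separate tumours, and whether a pair shares an animal is not known. Libraries N1 and 78780 had high Xist (1646 and 965 CPM) and low Ddx3y (0.749 and 2.18 CPM), N2 had both (275 and 148 CPM), and the other 5 had at most 12.5 CPM of Xist with at least 177 CPM of Ddx3y. N49 also held the most mature skeletal muscle RNA, at 5360 CPM summed over 27 genes against 548 to 1273 CPM in the other libraries. Library 78777 held 5991 CPM of epithelial genes, summed over 24 genes, against 61 to 492 CPM elsewhere. N2 held the most fat cell RNA, with Fabp4 at 342 CPM, Ucp1 at 115 CPM and Plin1 at 40.3 CPM against at most 8.07, 0.388 and 0.233 CPM elsewhere.

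**Figure D1:**
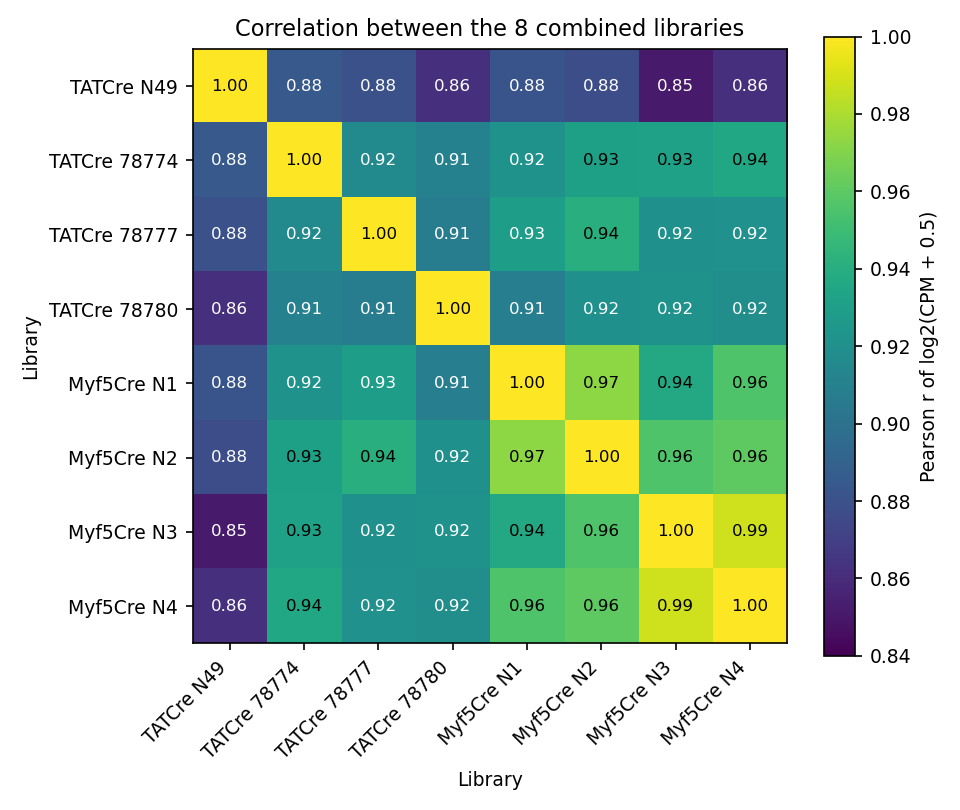
Pearson correlation of log2(CPM + 0.5) across genes between each pair of the 8 combined libraries (rows and columns are libraries, colour and printed value are r). The Myf5Cre pairs N3 with N4 and N1 with N2 have the highest values, and N49 has the lowest correlations with the rest.

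Of 18929 genes tested, 344 (1.82%) differed between the Cre labels at an adjusted p below 0.05 (edgeR quasi-likelihood test with Benjamini-Hochberg adjustment). In Myf5Cre tumours 108 genes (0.571%) were higher and 236 (1.25%) were lower, and all genes together had a median log2 fold change of -0.06. The 4 and 4 libraries did not overlap for 99 of the 108 genes called higher and 158 of the 236 called lower. Over all genes, 3.55% did not overlap in the higher and 4.39% in the lower direction. The called genes were picked by a test on these same libraries, so a larger share among them is no separate evidence. Because each library is bulk tumour RNA, fewer cells of a type and less RNA per cell cannot be told apart in any of these differences.

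How many genes were called depended on single libraries and on how the spread was estimated. Leaving out N4 left 55 calls (34 higher, 21 lower), N3 81, N2 111, N1 159 and N49 164, while leaving out 78774, 78777 or 78780 gave 540, 611 and 471. A fit of the 8 libraries alone, without the other genotypes, called 23 genes, and summing N1 with N2 and N3 with N4 left 21, of which 18 were higher. In these reduced fits 73.9% and 85.7% of the calls were higher, against 31.4% in the fit of all 22 libraries. Of the 344 genes, 51 were called in each of the 8 fits that left out 1 combined library, 31 of them higher and 20 lower. In each of these fits N1 with N2, or N3 with N4, stayed together. The fits therefore cannot show whether a call rests on those alike pairs. Both with the pairs summed and in the 8 libraries alone, 8 genes were called, among them Six2, F2rl1, Gas1, Bicd1, Gnptab, Chpt1 and Rps3a3. The direction did not turn for any of the 344 genes in the fits where they were tested.

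**Figure D2:**
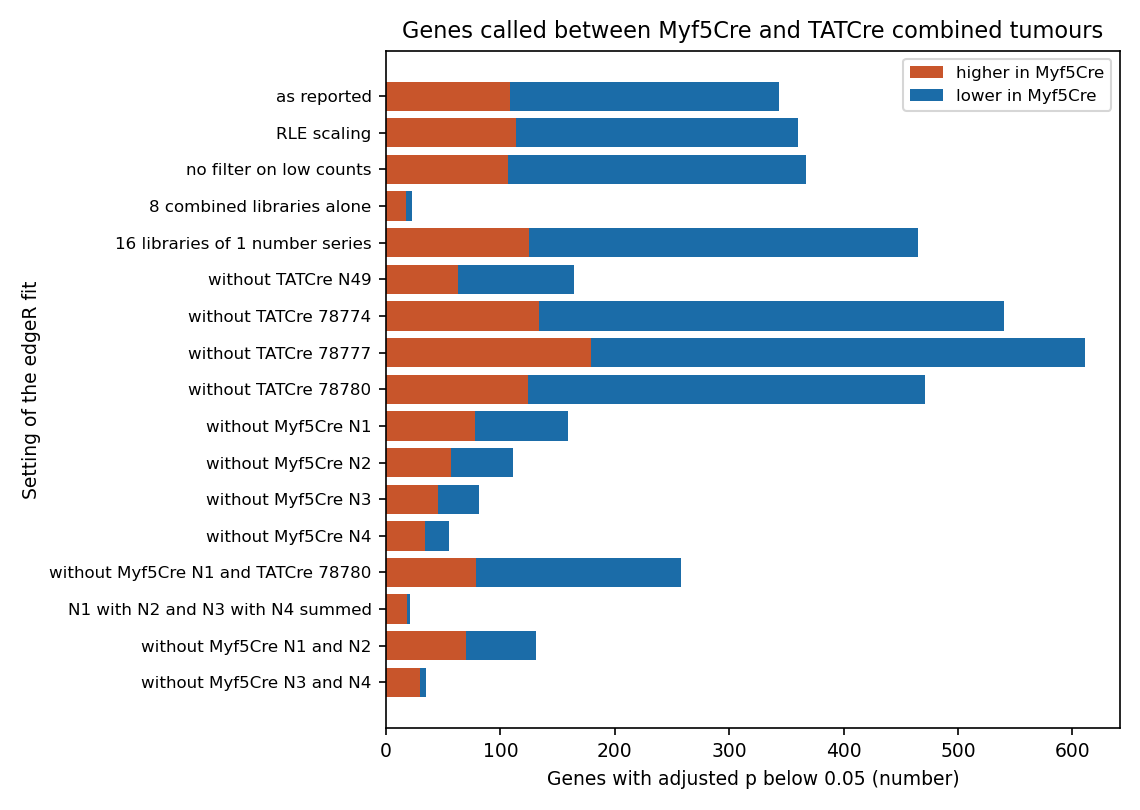
Number of genes with an edgeR adjusted p below 0.05 between Myf5Cre and TATCre combined tumours (x axis) under each setting of the fit (y axis), split into genes higher (orange) and lower (blue) in Myf5Cre. The count falls from 344 to 55 without N4 and to 21 when the 2 alike pairs are summed, and most calls are then higher.

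Developmental transcription factors were among the genes that were higher in Myf5Cre tumours. Six2, a homeobox factor of nephron progenitors and head mesenchyme, was at 0.146, 0, 0.0584 and 0.225 CPM in TATCre and at 10.7, 5.48, 33.8 and 34.3 CPM in Myf5Cre, a log2 fold change of 7.58 ± 1.25 (SE, n = 4 and 4, edgeR adjusted p = 0.00637). It was nearly absent from TATCre and differed several-fold between the N1, N2 and the N3, N4 libraries. Meis2, a TALE homeobox partner of Hox and Pbx proteins, was at 0.513, 0.493, 9.93 and 1.20 CPM against 152, 79.0, 59.5 and 70.9 CPM (4.88 ± 0.97, adjusted p = 0.0176). Among TATCre libraries 78777 held the most Meis2, still below the lowest Myf5Cre library. Six2 and Meis2 were called whichever library was left out. Six2 was also called with the alike pairs summed and in the 8 libraries alone, and Meis2 in neither of those fits.

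Boc, Gas1 and Smoc2 were also higher in Myf5Cre tumours. Boc, a coreceptor for Sonic hedgehog that also promotes muscle differentiation, was at 20.6, 21.6, 30.5 and 7.36 CPM in TATCre and at 221, 432, 315 and 436 CPM in Myf5Cre (4.13 ± 0.76, adjusted p = 0.0111). Gas1, another hedgehog coreceptor, was at 39.6, 19.9, 34.2 and 32.4 CPM against 298, 269, 382 and 318 CPM (3.33 ± 0.54, adjusted p = 0.00631). Both groups were tight for Gas1 and did not overlap. Smoc2, a secreted calcium-binding matrix protein, was at 2.64, 11.0, 67.2 and 78.9 CPM against 653, 661, 2664 and 2162 CPM, the most abundant of these genes (5.26 ± 1.01, adjusted p = 0.0145). Boc, Gas1 and Smoc2 were called in each of the 8 fits that left out a library. Gas1 was also called with the alike pairs summed and in the 8 libraries alone. Boc was called only in the latter of these fits, and Smoc2 in neither. Gas1 and Smoc2 were chosen for mention after their values were seen. The hedgehog and Notch list as a whole did not follow Boc: of 25 genes tested, 1 was called higher (Boc) and 1 lower. Over all genes 0.571% were called higher and 1.25% lower. The lower gene was the Notch target Hey1 (-2.59 ± 0.63, adjusted p = 0.0405), and the list median was -0.40. Hey1 overlapped between groups, since N49 had 9.01 CPM and the other TATCre libraries 58.8 to 129 CPM, against 10.9 to 18.7 CPM in Myf5Cre. Its call was lost without any one of 6 of the 8 libraries.

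**Figure D3:**
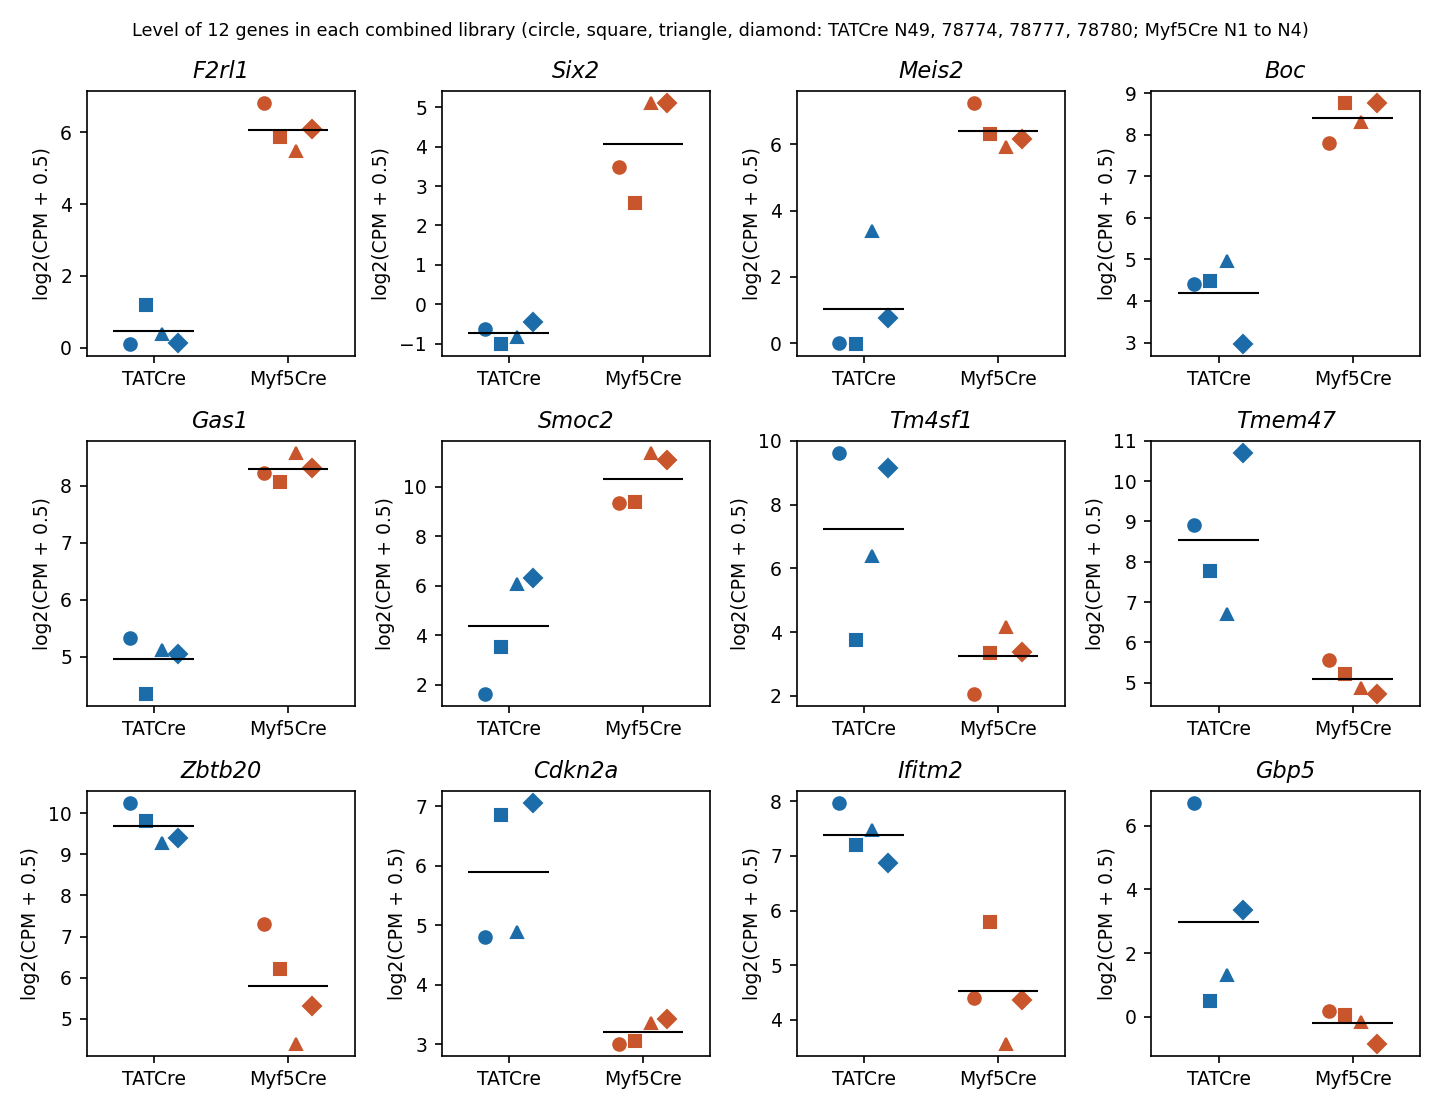
Level of 12 genes as log2(CPM + 0.5) (y axes, scaled per gene) in TATCre (blue) and Myf5Cre (orange) combined tumours; each symbol is a library and the black line is the mean of 4. F2rl1, Six2, Meis2, Boc, Gas1 and Smoc2 are higher in all 4 Myf5Cre libraries, and Tm4sf1 is the gene of the lower 6 whose groups overlap.

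Other genes with large differences had less obvious ties to muscle or mesenchyme. F2rl1, a protease-activated receptor, was at 0.586, 1.79, 0.818 and 0.601 CPM against 113, 58.0, 44.3 and 67.4 CPM (6.19 ± 0.83, adjusted p = 0.00184). Capn6, a calpain-family protein that stabilises microtubules, was at 0.0732 CPM in N49 and 5.18 to 8.18 CPM in the other TATCre libraries, against 136 to 487 CPM in Myf5Cre (5.70 ± 0.84, adjusted p = 0.00321). Cldn19, a tight junction claudin, was at most 0.308 CPM in TATCre and 3.41 to 20.4 CPM in Myf5Cre (6.07 ± 1.08, adjusted p = 0.0101). These 3 genes were called in each fit that left out a library. Tg, the thyroid hormone precursor, was split within the Myf5Cre group at 174, 109, 2.02 and 0.909 CPM, against 0.0732, 0.123, 0.292 and 0.150 CPM in TATCre (8.71 ± 1.42, adjusted p = 0.00631). Other thyroid genes stayed low in the 8 libraries: Tshr reached 0.863 CPM, Foxe1 3.45 CPM and the iodide transporter gene Slc5a5 2.61 CPM, with none called. Fam181a had no count in the 4 TATCre libraries and 1.07, 0.963, 7.14 and 7.21 CPM in Myf5Cre, at least 76.7-fold higher when 3 counts are allowed over the TATCre group, but its call was lost without N49, N3 or N4.

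Further genes were named by the size of their difference. Zfp990, a zinc finger gene, reached 2.03 to 4.91 CPM in Myf5Cre and 0.0751 CPM in 1 TATCre library (7.07 ± 1.43, adjusted p = 0.0190), and its call was lost without N49 or N4. Umodl1 stood at 1.28, 3.49, 24.1 and 32.1 CPM in Myf5Cre against at most 0.376 CPM (6.56 ± 1.40, adjusted p = 0.0245). Psg29, Ccdc81 and the fibrinogen chain gene Fgg were each at most 0.374 CPM in N1 and in TATCre and at least 0.602 CPM in N2, N3 and N4 (log2 fold changes 6.18, 5.50 and 5.46). The groups did not overlap for any of these genes, and the calls of Umodl1, Psg29 and Fgg were each lost without at least 1 library. Psg29, Ccdc81 and Fgg were tested in only 5 of the 8 fits that left out a library, and Ccdc81 was called in those 5. Rxfp3, a relaxin family peptide receptor, was at 0, 0.802, 0.526 and 0.751 CPM against 12.3, 15.8, 4.04 and 7.82 CPM (4.24 ± 0.71, adjusted p = 0.00637). Bicd1, a dynein adaptor, was at 1.83, 4.25, 4.44 and 5.41 CPM against 34.0, 26.5, 25.0 and 32.7 CPM (2.89 ± 0.40, adjusted p = 0.00234). Rxfp3 and Bicd1 were called in each of the 8 fits and were chosen after their values were seen.

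The muscle lists gave a mixed picture. Of 32 genes of muscle progenitors and early differentiation, none was called lower. The list's median log2 fold change was -1.21. Pax3, a factor of embryonic muscle progenitors, was at 26.7, 9.80, 0.759 and 4.28 CPM in TATCre and at 32.3, 103, 166 and 147 CPM in Myf5Cre. The groups did not overlap, N1 lay just above N49, and the difference did not pass the test (3.43 ± 1.13, adjusted p = 0.111). Myh8, the perinatal myosin heavy chain, was at 3.002, 4.501, 17.6 and 15.4 CPM against 758, 222, 1287 and 1840.4 CPM without passing it (6.66 ± 1.95, adjusted p = 0.0762). Mybpc1, a slow muscle filament protein, was likewise at 6.54 to 62.3 CPM against 179 to 656 CPM (4.17 ± 1.19, adjusted p = 0.0713). Of 27 mature skeletal muscle genes none was called, with a median of -2.39. The other 3 TATCre libraries summed to 548 to 1146 CPM for this list, against 751 to 1273 CPM in Myf5Cre.

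Among the genes that were lower in Myf5Cre tumours, 20 of 236 held their call whichever combined library was left out. Zbtb20, a zinc finger repressor, was at 1225, 903, 619 and 669 CPM in TATCre and at 158, 74.0, 20.6 and 39.1 CPM in Myf5Cre (-3.55 ± 0.59, adjusted p = 0.00637). The lowest TATCre library was several times the highest Myf5Cre library. Tmem47, a cell junction protein, was at 483, 219, 104 and 1673 CPM against 46.8, 36.9, 28.6 and 26.0 CPM (-4.16 ± 0.63, adjusted p = 0.00419), again without overlap. Tm4sf1, a tetraspanin-like surface protein, was at 793, 12.9, 83.7 and 571 CPM against 3.69, 9.57, 17.5 and 9.88 CPM (-5.17 ± 0.88, adjusted p = 0.00687). Library 78774 overlapped the Myf5Cre range for Tm4sf1. Slc1a3, a glutamate transporter of glia, was at 110, 151, 178 and 16.1 CPM against 16.7, 12.3, 5.12 and 5.88 CPM (-3.50 ± 0.59, adjusted p = 0.00687), and 78780 overlapped N1. These 4 genes were called in each of the 8 fits that left out a library. None of the 4 was called with the alike pairs summed or in the 8 combined libraries alone. Zbtb20, Tmem47 and Tm4sf1 were chosen for mention after their values were seen.

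The tumour suppressor locus Cdkn2 was lower in Myf5Cre tumours at both genes. Cdkn2a, which encodes p16 and p19Arf, was at 27.4, 115, 28.9 and 133 CPM in TATCre and at 7.54, 7.76, 9.78 and 10.2 CPM in Myf5Cre (-3.11 ± 0.60, adjusted p = 0.0142). Its neighbour Cdkn2b, which encodes p15, was at 10.5, 20.9, 9.06 and 21.8 CPM against 2.46, 3.37, 4.66 and 4.18 CPM (-2.08 ± 0.41, adjusted p = 0.0168). In both genes 78774 and 78780 were high, N49 and 78777 were intermediate, and the 4 Myf5Cre libraries were low and alike. Pmaip1, which encodes the pro-apoptotic Noxa, was at 6.37, 14.1, 13.6 and 5.33 CPM against 2.73, 4.70, 1.09 and 0.364 CPM (-2.14 ± 0.54, adjusted p = 0.0460). Of 19 p53 target and Cdkn2 genes tested, these 3 were called lower and none higher, against 1.25% and 0.571% of all genes. The list median was -0.31. The calls of Cdkn2a were lost without N2, N3 or N4, those of Cdkn2b without N1, N2 or N4, and that of Pmaip1 without any one of 6 libraries.

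Position genes of the limb and body were called in both directions. Of 52 tested, 1 was called higher (Meis2) and 2 lower (Hand2 and Msx2), against 0.571% and 1.25% of all genes. The list median was -0.55. At an unadjusted p below 0.05, 10 were lower and 2 higher, against 12% and 5.17% of all genes. Hand2, a factor of the limb, heart and sympathetic nervous system, was at 71.5, 1.66, 2.57 and 23.6 CPM in TATCre and at 1.02, 0.361, 0.466 and 0 CPM in Myf5Cre (-5.72 ± 1.35, adjusted p = 0.0374). Its antisense neighbour Hand2os1 was at 30.1, 0.863, 0.643 and 38.1 CPM against at most 0.481 CPM (-6.12 ± 1.48, adjusted p = 0.0405). N49 and 78780 held most of the RNA of both, and both calls were lost without N49 or without any one Myf5Cre library; whether counting used the strand is not stated, and reads of the 2 overlapping genes may not be told apart. Msx2, a homeobox factor of limb and skull, was at 20.2, 0.493, 70.0 and 2.48 CPM against 0.0606 to 0.542 CPM (-6.27 ± 1.16, adjusted p = 0.0117), with 78774 inside the Myf5Cre range. Vax2, a ventral eye homeobox factor, was at 15.7, 12.3, 8.76 and 5.26 CPM against 0.481, 0.662, 0.0776 and 0.182 CPM (-4.85 ± 0.98, adjusted p = 0.0189), and its antisense neighbour Vax2os followed it (-5.50 ± 1.10, adjusted p = 0.0180). Vax2 lay outside the gene lists and was named after its values were seen.

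Hox genes, whose order along each cluster follows position along the body, gave no call. Of 37 Hox genes tested, 11 belong to paralogue groups 1 to 4, 11 to groups 5 to 8 and 15 to groups 9 to 13, with median log2 fold changes of -0.77, -0.89 and -1.36. At an unadjusted p below 0.05 the posterior list had 5 genes lower and none higher, against 12% and 5.17% of all genes. These 5 were Hoxc9, Hoxc10, Hoxc11, Hoxc12 and Hoxc13, all of the HoxC cluster. The lowest were Hoxc9, at 16.9, 16.3, 1.69 and 8.26 CPM in TATCre against 0.160, 0.602, 0.0776 and 0 CPM (-5.62 ± 1.54, adjusted p = 0.0654), and Hoxc10, at 15.6, 8.32, 1.99 and 4.36 CPM against 0.0606 to 0.241 CPM (-5.57 ± 1.62, adjusted p = 0.0752). Neither gene overlapped between the groups, and neither passed the test. In the other Hox lists the genes lower at an unadjusted p below 0.05 were Hoxc4, Hoxc5, Hoxc6 and Hoxc8, also of the HoxC cluster. No gene of the HoxA, HoxB or HoxD clusters fell below that p. Posterior genes with a log2 fold change above 0 were Hoxa11, Hoxa13, Hoxd9, Hoxd11 and Hoxd12. Tbx5, a factor of the forelimb and heart, was at 42.0 CPM in N49 and at most 4.56 CPM elsewhere (-6.21 ± 2.02, adjusted p = 0.106).

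Several of the largest differences rested on 1 TATCre library. Col6a6, a collagen VI chain, was at 2323 CPM in N49 and at 17.5, 14.5 and 8.71 CPM in the other TATCre libraries, against 1.27 to 8.23 CPM in Myf5Cre (-7.59 ± 1.80, adjusted p = 0.0384). Sfrp1, a secreted Wnt inhibitor, was at 1752, 37.6, 5.20 and 1.88 CPM against 0.545 to 5.35 CPM (-7.47 ± 1.82, adjusted p = 0.0411). Without N49 the log2 fold changes were -2.12 and -2.53 and neither gene was called. Serpinb11 and Serpinb7, neighbouring serpin genes, owed theirs to 78777 with 276 and 108 CPM (-7.13 and -7.00, and -2.41 and -3.70 without that library). This is the library with 5991 CPM of epithelial genes, and the part of that RNA in these 2 differences was not tested. Uts2b, a urotensin peptide gene, owed its value to 78780 with 25.0 CPM (-8.24, and -4.91 without it). Vipr1, a receptor for vasoactive intestinal peptide, was at 64.1 CPM in N49 and at most 2.90 CPM elsewhere (-5.14, and -1.70 without N49). N49 was the highest TATCre library for 132 of the 236 lower genes and exceeded 3 times the mean of the other TATCre libraries for 61. Nol3, an inhibitor of cell death, was also highest in N49, at 72.1 CPM against 1.17 to 20.1 CPM, and was 0.182 to 1.02 CPM in Myf5Cre (-5.07 ± 1.003, adjusted p = 0.0168); its call was lost without N3 or N4.

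Guanylate-binding proteins, GTPases induced by interferon gamma that act against pathogens inside cells, were lower together in Myf5Cre tumours. Of 10 Gbp genes tested, 7 were called lower (Gbp2, Gbp2b, Gbp3, Gbp4, Gbp5, Gbp7 and Gbp8) and none higher, against 1.25% and 0.571% of all genes. They lie in 2 clusters, and the 5 genes of the cluster at chr3:142493978-142638008 (GRCm38) were all called. The windows around the start sites of these 5 genes are shown because the genes moved together; each runs from 250 bases before to 50 bases after the start, on the plus strand of GRCm38.p6, from RefSeq. Capitals mark matches on either strand to GAS, the gamma-activated site (TTC, any 3 bases, GAA), or to ISRE, the motif of interferon-regulated complexes (GAAA, any 2 bases, GAAA). The windows are, in the order of the cluster:
Gbp5 (chr3:142496684-142496983): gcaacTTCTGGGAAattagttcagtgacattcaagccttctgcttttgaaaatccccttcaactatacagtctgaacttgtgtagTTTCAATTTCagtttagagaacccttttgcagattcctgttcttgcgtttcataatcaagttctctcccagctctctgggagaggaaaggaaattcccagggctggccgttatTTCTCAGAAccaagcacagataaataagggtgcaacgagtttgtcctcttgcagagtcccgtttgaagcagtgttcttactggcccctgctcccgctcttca
Gbp7 (chr3:142530086-142530385): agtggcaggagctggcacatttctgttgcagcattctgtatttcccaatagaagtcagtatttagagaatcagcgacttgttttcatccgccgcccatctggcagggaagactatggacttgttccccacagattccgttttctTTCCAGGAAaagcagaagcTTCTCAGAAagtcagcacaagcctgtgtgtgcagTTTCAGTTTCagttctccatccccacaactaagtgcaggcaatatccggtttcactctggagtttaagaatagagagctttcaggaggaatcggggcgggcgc
Gbp3 (chr3:142559794-142560093): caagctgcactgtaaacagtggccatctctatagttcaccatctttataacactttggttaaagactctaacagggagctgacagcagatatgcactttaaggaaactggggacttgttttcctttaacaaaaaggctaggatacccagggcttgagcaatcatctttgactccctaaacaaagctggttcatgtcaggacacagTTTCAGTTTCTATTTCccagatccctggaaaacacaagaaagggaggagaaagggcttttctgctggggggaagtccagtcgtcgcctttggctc
Gbp2b (chr3:142594597-142594896): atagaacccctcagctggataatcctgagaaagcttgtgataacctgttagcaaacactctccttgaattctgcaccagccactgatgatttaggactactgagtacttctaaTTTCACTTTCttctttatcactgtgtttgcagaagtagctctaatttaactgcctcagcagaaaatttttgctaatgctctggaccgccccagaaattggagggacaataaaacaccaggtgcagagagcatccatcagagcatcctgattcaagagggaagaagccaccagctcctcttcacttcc
Gbp2 (chr3:142620413-142620712): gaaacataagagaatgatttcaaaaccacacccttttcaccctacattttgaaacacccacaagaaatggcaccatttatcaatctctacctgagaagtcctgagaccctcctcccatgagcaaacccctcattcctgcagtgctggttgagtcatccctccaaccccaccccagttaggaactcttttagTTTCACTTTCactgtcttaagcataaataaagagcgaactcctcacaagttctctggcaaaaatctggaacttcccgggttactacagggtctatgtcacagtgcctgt
Each of the 5 windows held the ISRE motif, which 3.44% of 32851 promoter windows of 300 bases in the table hold, and the windows of Gbp5 and Gbp7 also held the GAS motif, found in 8.3% of all windows. Gbp3 has another start site in the table whose window held neither motif. In Gbp3 the marked run holds 2 overlapping ISRE matches. A match describes letters in the reference and not binding.

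Gbp2 was at 95.2, 13.7, 26.2 and 65.7 CPM in TATCre and at 8.45, 11.9, 7.99 and 7.27 CPM in Myf5Cre (-2.49 ± 0.57, adjusted p = 0.0346). Gbp2b was at 35.6, 8.69, 14.6 and 64.6 CPM against 0.481, 0.903, 0.155 and 0 CPM (-6.28 ± 1.38, adjusted p = 0.0278). N49 and 78780 were the higher TATCre libraries for both genes, and no gene of the 7 overlapped between the groups. The 7 were picked as called genes, and 158 of the 236 genes called lower did not overlap either. Gbp5 was at 105, 0.925, 1.99 and 9.61 CPM against 0.642, 0.542, 0.388 and 0.0606 CPM (-6.13 ± 1.35, adjusted p = 0.0278), and stood at -3.32 without N49. Gbp3 (-2.002 ± 0.44, adjusted p = 0.0287) and Gbp7 (-1.53 ± 0.38, adjusted p = 0.0428) had smaller differences. Gbp4 (-3.74 ± 0.71, adjusted p = 0.0128) and Gbp8 (-3.63 ± 0.91, adjusted p = 0.0462), on chromosome 5, share coordinates with Gbp9, and reads of this family may have been split between copies. Without N3 or without N4 none of the 7 was called.

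Other interferon genes were lower in part. Ifitm2, an antiviral membrane protein, was at 251, 146, 176 and 116 CPM in TATCre and at 20.6, 55.1, 11.3 and 20.2 CPM in Myf5Cre (-2.69 ± 0.41, adjusted p = 0.00419), and was called in each fit that left out a library. Ifitm3 was at 121, 55.4, 67.2 and 42.9 CPM against 6.68, 11.8, 4.35 and 5.45 CPM (-3.34 ± 0.63, adjusted p = 0.0128). The Ifitm3 call was lost without N3 or without N4. Both genes separated the groups, and they were named after their values were seen. Of 24 genes of the interferon list, 2 were called lower (Gbp2 and Gbp3) and none higher, against 1.25% and 0.571% of all genes. At an unadjusted p below 0.05, 9 were lower (12% of all genes), and the median was -1.19. The list sum was 682, 613, 1502 and 1318 CPM against 477, 600, 241 and 321 CPM. Irf7, a transcription factor of the response (-0.31, adjusted p = 0.869), and Usp18, its feedback inhibitor (-0.18, adjusted p = 0.945), did not pass the test. Cxcl10, a chemokine that attracts T cells, was at 95.4 CPM in 78780 and at most 1.24 CPM in the other 7 libraries. Of 16 antigen presentation genes none was called, 7 did not overlap between the groups in the lower direction (4.39% of all genes), and the median was -1.07.

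Macrophage RNA moved with the same groups. The summed level of 18 macrophage and myeloid genes was 1255, 801, 604 and 828 CPM in TATCre and 237, 423, 162 and 135 CPM in Myf5Cre, without overlap. Adgre1, which encodes the macrophage surface protein F4/80, was the 1 gene of the list called lower (1.25% of all genes). Adgre1 was at 62.8, 31.2, 21.8 and 18.9 CPM against 8.45, 10.6, 5.82 and 4.67 CPM (-2.19 ± 0.55, adjusted p = 0.0474). At an unadjusted p below 0.05, 15 of the 18 were lower, against 12% of all genes, and 14 did not overlap between the groups in that direction, against 4.39%. The list median was -1.75. Ptprc, which encodes the leukocyte protein CD45, was at 66.1, 31.1, 32.4 and 36.5 CPM against 5.99, 12.6, 5.59 and 5.09 CPM (-2.50 ± 0.65, adjusted p = 0.0535). Itgax, the dendritic cell integrin CD11c, lay outside the list and was lower (-2.69 ± 0.58, adjusted p = 0.0245), as was Timd4, a receptor of resident macrophages with at most 0.0776 CPM in Myf5Cre (-5.95 ± 1.39, adjusted p = 0.0374). Both calls were lost without any one Myf5Cre library, and that of Timd4 also without N49 or 78780. Without N49 none of the 18 was called and 12 were lower at an unadjusted p below 0.05; with the 2 alike pairs summed the numbers were 0 and 11. No marker of the list was at 0 in a whole group. The part of these cells in the Gbp and Ifitm differences was not tested.

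Lymphocyte genes were scarce throughout. Of 21 T and NK cell genes, none was called and 10 were lower at an unadjusted p below 0.05, against 12% of all genes. Their summed level overlapped between the groups (8.32 to 84.5 CPM against 8.61 to 26.8 CPM), and 6 of them had no count in any Myf5Cre library. Cd3d, a T cell receptor subunit, was at 0.123 to 1.20 CPM in TATCre and at 0 in Myf5Cre (adjusted p = 0.0759). B cell genes summed to 5.18 to 10.8 CPM against 1.24 to 2.95 CPM. Endothelial genes gave no call in 15, with a median of -0.64, and summed to 306 to 582 CPM against 264 to 289 CPM. Pericyte and smooth muscle genes gave none in 12, with 6 lower at an unadjusted p below 0.05 (12% of all genes) and sums of 614 to 1081 CPM against 289.9 to 357 CPM.

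**Figure D4:**
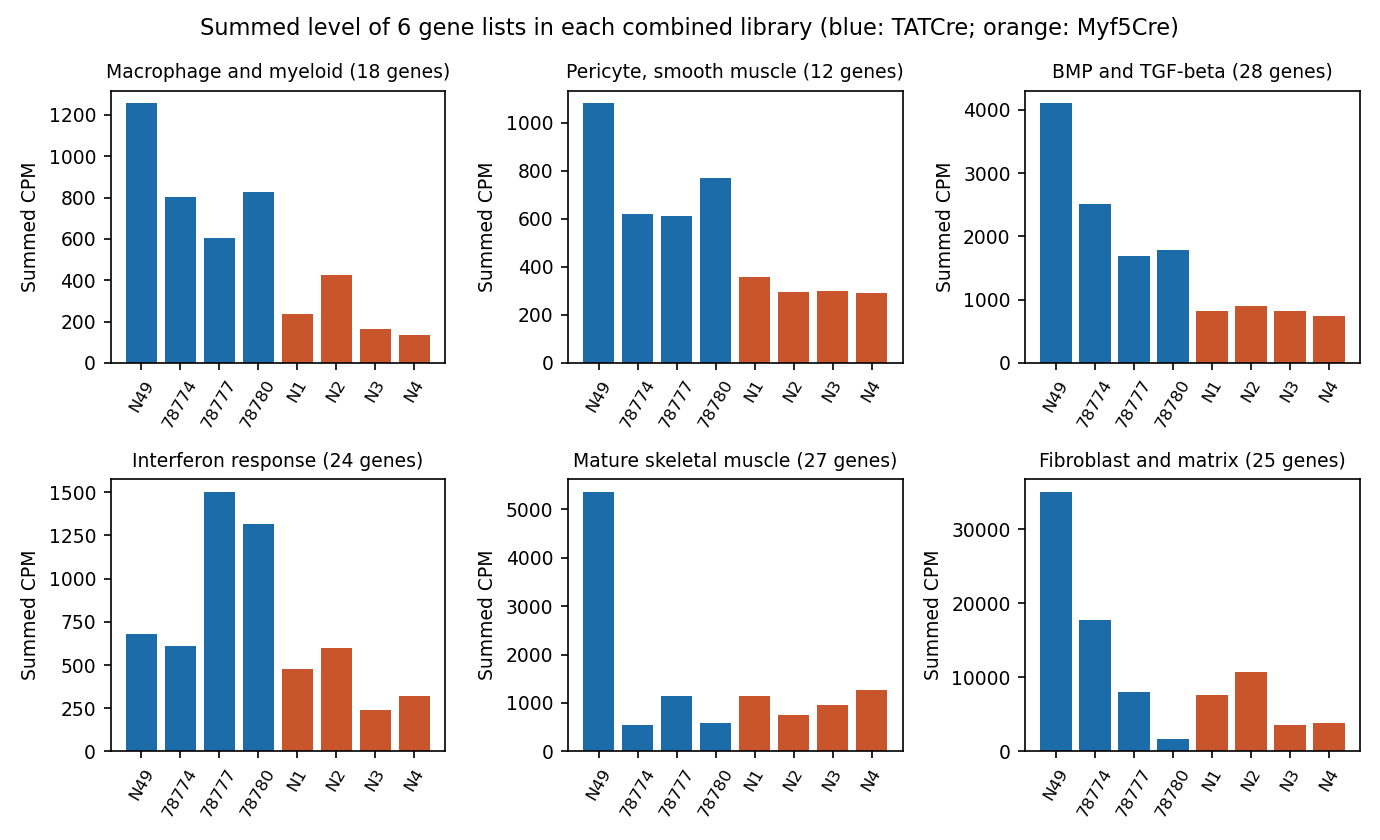
Summed CPM of 6 gene lists (y axes, from 0) in each of the 8 combined libraries (x axes; blue is TATCre, orange is Myf5Cre). Macrophage sums are 604 to 1255 CPM in TATCre and 135 to 423 CPM in Myf5Cre, while the mature muscle and matrix lists peak in N49.

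Signalling lists showed more low genes than calls. Of 28 BMP and TGF-beta genes none was called, 10 were lower and 1 was higher at an unadjusted p below 0.05 (12% and 5.17% of all genes), and the median was -0.92. Their summed level was 4100, 2511, 1683 and 1788 CPM in TATCre and 825, 906, 825 and 748 CPM in Myf5Cre. Of 36 Wnt genes, 2 were called lower (1.25% of all genes), Sfrp1, described above, and Notum. Notum, an extracellular Wnt inhibitor and Wnt target, was at 0.586, 12.4, 6.72 and 5.78 CPM against 0.962, 0.482, 0.0776 and 0.121 CPM (-3.90 ± 0.90, adjusted p = 0.0368). N49 lay below N1 for Notum, so the groups overlapped. Of 20 Fgf genes, 1 was called lower (1.25% of all genes), the ligand Fgf9. It was at 81.4, 5.24, 18.5 and 30.3 CPM against 5.77, 9.51, 3.88 and 4.24 CPM (-2.53 ± 0.61, adjusted p = 0.0402). Without N49 the log2 fold change of Fgf9 was -1.60 and it was not called. Of 17 retinoic acid genes none was called, although Cyp26c1, which clears retinoic acid, was at 1.40 to 17.9 CPM in Myf5Cre and at most 0.976 CPM in TATCre (4.16 ± 1.08, adjusted p = 0.0539).

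Single neural markers were lower in Myf5Cre tumours. Egr2, an immediate-early and Schwann cell factor, was at 27.5, 35.0, 2.10 and 15.1 CPM in TATCre and at 2.89, 2.05, 3.80 and 3.51 CPM in Myf5Cre (-2.70 ± 0.54, adjusted p = 0.0180). Tubb3, a neuronal tubulin, was at 117, 1.73, 59.8 and 80.3 CPM against 7.43, 3.91, 4.58 and 1.9996 CPM (-3.85 ± 0.97, adjusted p = 0.0485). In each gene 1 TATCre library, 78777 for Egr2 and 78774 for Tubb3, lay in or below the Myf5Cre range. Of 23 neuron genes 1 was called (Tubb3), and of 13 Schwann and neural crest genes 1 (Egr2), against 1.82% of all genes. Of 14 glial and progenitor genes, Slc1a3 was the 1 called lower (1.25% of all genes).

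Imprinted genes, which are expressed from 1 parental copy and many of which control growth, were the list with the most calls in the higher direction. Of 19 tested, 2 were called higher and none lower, against 0.571% and 1.25% of all genes. At an unadjusted p below 0.05, 7 were higher (5.17% of all genes), and the list median was 0.90. Peg3, a paternally expressed zinc finger gene, was at 39.8, 95.2, 63.9 and 35.1 CPM in TATCre and at 417, 410, 193 and 242 CPM in Myf5Cre (2.43 ± 0.46, adjusted p = 0.0139). Its neighbour Usp29, outside the list, was at 0.293, 0.493, 0 and 0.150 CPM against 8.93, 7.58, 3.80 and 4.54 CPM (4.69 ± 1.05, adjusted p = 0.0299). The Peg3 call held whichever library was left out, but not with the alike pairs summed or in the 8 libraries alone. Peg3 was higher in N1 and N2 than in N3 and N4. The Usp29 call was lost without N49 or without any one Myf5Cre library. Ndn, a paternally expressed growth suppressor, was at 11.6, 22.9, 5.55 and 1.58 CPM against 185, 228, 38.5 and 40.5 CPM (3.56 ± 0.85, adjusted p = 0.0391), and its call was lost without any one of 7 libraries. Igf2 and H19 overlapped between the groups.

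Few subunits of chromatin complexes were called. Of 30 BAF subunits, 1 was called (1.82% of all genes), Brd7, a subunit of the PBAF form. Brd7 was at 64.9, 83.4, 94.0 and 89.1 CPM in TATCre against 124, 106, 267 and 240 CPM in Myf5Cre (1.15 ± 0.27, adjusted p = 0.0388). Its call was lost without N49, 78774, N3 or N4. Of 33 Polycomb subunits none was called and 8 were higher at an unadjusted p below 0.05 (5.17% of all genes), with a median of 0.04. Of 27 cell cycle genes none was called, and their median was 0.02. Of 31 genes associated with synovial sarcoma, Six2 was called higher and Fgf9 lower, against 0.571% and 1.25% of all genes. The median of this list was -0.03. RNA quality genes gave no call among 14.

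Chromosomes 16 and 10 had the highest shares of genes called higher. On chromosome 10, 818 genes were tested and 10 (1.22%) were higher and 10 (1.22%) lower. On chromosome 16, 551 were tested and 9 (1.63%) were higher and 12 (2.18%) lower. Of all genes, 0.571% were called higher and 1.25% lower. Of the 51 genes called in each of the 8 fits, 5 lie on chromosome 10 and 4 each on chromosomes 3, 6, 13 and 16. These are 0.611% of the genes tested on chromosome 10, 0.726% on 16 and 0.593% on 13. Called genes of the same direction whose starts lay within 0.5 Mb of the next formed 15 runs of 3 or more, 5 higher and 10 lower, holding 50 genes. This grouping was made after the calls were seen and carries no test.

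A run at chr10:88322804-88504073 (GRCm38) held Dram1, Gnptab and Chpt1, which serve autophagy, lysosomal enzyme targeting and phospholipid synthesis. Gnptab was at 62.2, 60.5, 84.6 and 70.0 CPM in TATCre and at 313, 236, 344 and 303 CPM in Myf5Cre (2.11 ± 0.30, adjusted p = 0.00253). Chpt1 was at 58.0, 101, 115 and 90.2 CPM against 431, 295, 805 and 638 CPM (2.57 ± 0.40, adjusted p = 0.00555). Both were abundant in every library and separated the groups cleanly. Dram1 was at 4.58 to 18.8 CPM against 48.4 to 108 CPM (2.52 ± 0.42, adjusted p = 0.00637). All 4 tested genes of the run had a fold change above 0, and Mybpc1, described above, lies at chr10:88518279-88605152. A further run on the same chromosome, chr10:13178140-13519035, held Ltv1, Phactr2 and Fuca2, the 3 genes tested there, with log2 fold changes of 1.77, 2.003 and 2.14 and adjusted p of 0.0211, 0.00502 and 0.00184. Another run on chromosome 10 was lower: at chr10:127000709-127180645, 4 of 12 tested genes were called lower and 0 higher. These were Avil, Agap2, B4galnt1 and Slc26a10, and the median log2 fold change of the span was -0.365. Myf5, the gene in the Cre label, is at chr10:107482908-107486134. In Snf5-null tumours the Dram1 and Ltv1 runs had median log2 fold changes of -0.50 and -0.42 between the Cre labels. No member of these higher runs named here was called there. The span of the lower run had a median of -0.378 there, and Slc26a10 was called lower (-3.33, adjusted p = 0.0156). Whether position on the chromosome had a part in these differences was not tested.

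Runs elsewhere joined genes already described to their neighbours. At chr16:44240180-44737284, 4 of 7 tested genes were called higher: Sidt1, Cfap44, Boc and Nepro (1.90 ± 0.31, adjusted p = 0.00631), while Spice1 in the same span was not (-0.73, adjusted p = 0.0697). The calls of Sidt1 and Cfap44, both at most 3.67 CPM, were each lost without any one of at least 6 libraries. At chr2:115863064-116085911 the 3 tested genes, Meis2 and its neighbours 2700033N17Rik and G630016G05Rik, were all called higher. The Cdkn2 genes and Gm12609 formed a lower run at chr4:89274471-89399880.

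Some calls concern near-identical gene copies and are uncertain. Rps3a3, a copy of a ribosomal protein gene, was at 52.5, 319, 320.3 and 436 CPM against 1.55, 3.67, 3.18 and 0.667 CPM (-6.96 ± 0.71, adjusted p = 9.18e-05). Rps3a1, the parent gene, went the other way at 21.5, 1.42, 0.935 and 3.91 CPM against 100.4, 171, 233 and 147 CPM (4.55 ± 1.10, adjusted p = 0.0405). Summed, the pair stood at 74.0, 320.2, 321 and 439.7 CPM against 102, 175, 236 and 147.5 CPM, and the ranges overlapped. The sources used here do not say how reads matching several genes were assigned. Rps4l, another ribosomal copy, was higher (5.81 ± 0.74, adjusted p = 0.00130) and has the same limit.

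The same Cre comparison in Snf5-null tumours, 3 Myf5Cre against 5 TATCre libraries without the fusion, called 940 genes (4.97%), 337 higher (1.78%) and 603 lower (3.19%). Of the 344 genes called in combined tumours, 195 had the same sign there, and 30 were called in both genotypes, 18 with the same sign and 12 with opposite signs. The interaction of Cre label and genotype, which tests whether the Cre difference depends on the fusion, was called for 458 genes (2.42%), 249 above 0 (1.32%) and 209 below (1.1%), with 113 of them also called in combined tumours. Peg3 was higher with Myf5Cre in both genotypes, by 2.43 in combined and 5.11 ± 0.49 in Snf5-null tumours, and the size differed (interaction -2.68, adjusted p = 0.0319). Vax2 was lower in both (-4.85 and -5.19 ± 1.16, interaction adjusted p = 0.934), and so was Tmem47 (-4.16 and -3.10 ± 0.67, interaction adjusted p = 0.537). F2rl1 and Meis2 went opposite ways: F2rl1 was -3.51 ± 0.79 (adjusted p = 0.0165) in Snf5-null tumours, with an interaction of 9.70 ± 1.18 (adjusted p = 0.00102), and Meis2 was -3.78 ± 1.06 (adjusted p = 0.0464), with an interaction of 8.66 ± 1.47 (adjusted p = 0.00714). For Cdkn2a the interaction was -4.15 ± 0.80 (adjusted p = 0.0128), with 1.05 ± 0.56 (adjusted p = 0.308) in Snf5-null tumours.

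**Figure D5:**
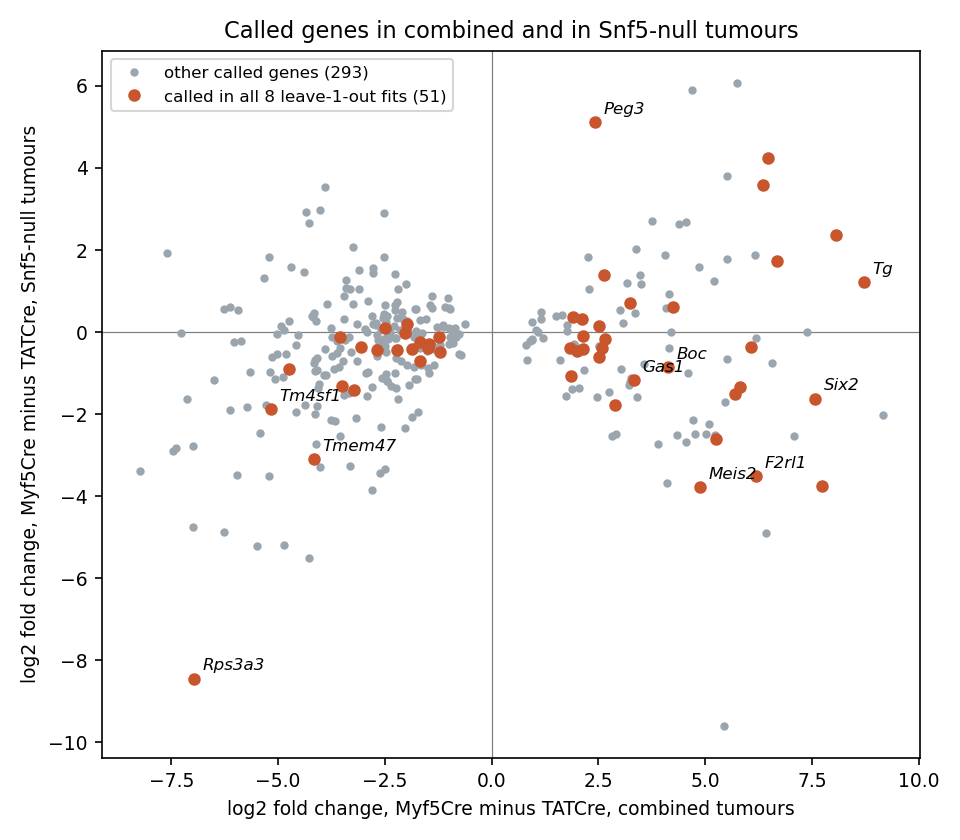
Log2 fold change between Myf5Cre and TATCre in combined tumours (x axis) and in Snf5-null tumours (y axis) for the 344 genes called in combined tumours; orange points are the 51 called in each of the 8 fits that leave out a library. Peg3, Tmem47 and Rps3a3 share their sign between genotypes, while F2rl1, Meis2 and Six2 lie on opposite sides of 0.

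The genes with the most extreme interactions were often scarce in combined tumours. Egfl6, an EGF-repeat matrix protein, was higher with Myf5Cre in combined tumours (0.220, 1.91, 3.21 and 0.676 CPM against 104, 145, 7.99 and 8.00 CPM, log2 fold change 5.43, adjusted p = 0.0405) and lower in Snf5-null tumours (-9.59 ± 1.87, adjusted p = 0.00857). The Egfl6 call in combined tumours held in only 1 of the 8 fits that left out a combined library. It was also lost with the alike pairs summed and in the 8 libraries alone. Irs3, Frem3, Rax and Bhlhe22 had log2 fold changes of -7.74, -9.32, -7.53 and -7.84 in Snf5-null tumours and no call in combined tumours, where Irs3, Frem3 and Rax were at most 0.424 CPM. Eno1b was at 10.2 to 14.4 CPM in combined Myf5Cre and at most 0.225 CPM in TATCre (6.89, adjusted p = 0.05002). In the other direction stood Sertm1, Slc26a7, Epyc, Col6a6, Gzma and Dnah5, of which Sertm1 and Slc26a7 were higher with Myf5Cre in Snf5-null tumours (6.59 and 7.16, adjusted p = 0.0288 and 0.00987).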

How the data were processed

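RNA was measured in 22 tumour libraries, of which 8 are compared here. Per the labels' protocols, RNA came from homogenised frozen tissue (RNeasy Mini kit) and libraries from the TruSeq Stranded mRNA kit; STAR 2.7.5a, RSEM, featureCounts, cutadapt, DESeq2 and the build mm10 appear in the submitters' processing notes, with no role given. The authors deposited whole-number counts for 48440 genes, of which 48058 were found in GENCODE M21 on GRCm38, the assembly also called mm10. Genes were kept by edgeR's filterByExpr (minimum count 10) over 6 groups of genotype and Cre label, leaving 18929 genes with 99.9% of counts. The counts of all 22 libraries were fitted together with edgeR 4.0.16 (R 4.3.3; TMM scaling, quasi-likelihood test, Benjamini-Hochberg adjustment over all genes, called below 0.05), so that all groups share the estimate of spread. CPM are counts scaled by TMM to a common library size. Errors are standard errors of the log2 fold change from that fit. Total counts of 14834030 to 18062578 per library make 1 count worth 0.0535 to 0.0776 CPM.

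Genes were named by rule: the 12 highest and 12 lowest called genes with a symbol, at least 1 CPM in the higher group and no overlap between the 4 and 4 libraries; all called list members; up to 4 members per list by size; 8 check genes; and the 6 highest and 6 lowest interaction genes. Genes outside it are said to be so or belong to a run or family described. The members and lists were chosen with earlier results of these data known. Alternatives were RLE scaling, no filter, DESeq2 1.42.0, the 8 libraries alone, the 16 combined and Snf5-null libraries, a log2 threshold of 1, each library left out, and, chosen after seeing the data, 4 fits that left out or summed libraries that resembled each other or differed in Xist. Some genes that the rule names are not reported here.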

Additional observations from a re-analysis of the deposited data

Results flagged for a closer look

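In groups of 4 libraries, 19 levels stood apart from the other 3 by Dixon's test on log2(CPM + 0.5); 98 genes in 2 groups each were looked at, and chance gives about 1 in 20. In TATCre, library 78780 stood apart for Myf5 (331 CPM), Xist (965 CPM), Ddx3y (2.18 CPM), Cxcl10 (95.4 CPM), Uts2b (25.0 CPM) and Zfp990 (0.0751 CPM). N49 stood apart for Col6a6 (2323 CPM), Gbp7 (96.0 CPM), Rps3a3 (52.5 CPM) and Capn6 (0.0732 CPM). 78777 stood apart for Serpinb11 (276 CPM) and Phactr2 (20.3 CPM), and 78774 for Tubb3 (1.73 CPM) and Psg29 (0.0617 CPM). In Myf5Cre, N1 stood apart for Ddx3y (0.749 CPM), Ccdc81 (0.107 CPM), Uts2b (0.0535 CPM) and Gzma (0.0535 CPM), and N3 for Col6a6 (8.23 CPM).

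The Cre difference in combined tumours differed from that in Snf5-null tumours, by the interaction term of the edgeR fit, for 44 named genes. Among genes higher with Myf5Cre in combined tumours, the interaction on the log2 scale was 9.70 for F2rl1, 9.601 for Zfp990, 9.19 for Six2, 8.66 for Meis2, 7.88 for Smoc2, 7.50 for Tg, 7.21 for Capn6, 7.14 for Rps4l and 6.43 for Cldn19. It was 4.99 for Boc, 4.66 for Bicd1, 4.49 for Gas1, 3.62 for Rxfp3 and -2.68 for Peg3. On chromosome 10 it was 3.14 for Dram1, 2.95 for Chpt1, 2.57 for Fuca2, 2.46 for Phactr2 and 1.78 for Gnptab. Among genes lower with Myf5Cre it was -9.53 for Col6a6, -7.45 for Notum, -6.84 for Msx2, -6.74 for Gbp5, -6.48 for Timd4, -4.15 for Cdkn2a, -3.62 for Gbp4, -3.43 for Zbtb20, -3.21 for Ifitm3, -3.17 for Gbp3, -3.15 for Gbp2, -2.93 for Egr2, -2.41 for Cdkn2b and -2.24 for Ifitm2. The genes at the ends of the interaction were Egfl6 (15.02), Irs3 (12.08), Eno1b (11.43), Frem3 (10.54), Rax (10.37) and Bhlhe22 (10.01), and Sertm1 (-9.84), Slc26a7 (-9.73), Epyc (-9.71), Gzma (-9.41) and Dnah5 (-8.93).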

How the results depend on the processing

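Calls moved with the libraries and the tool, and directions seldom did. Against 344 calls (108 higher, 236 lower), DESeq2 gave 1463 (382 higher, 1081 lower), the 8 combined libraries alone 23 (17 higher, 6 lower) and the alike pairs summed 21 (18 higher, 3 lower). Without N1 and N2 there were 131 calls (70 and 61), and without N3 and N4 35 (30 and 5). RLE scaling (360), no filter on low counts (367), a minimum of 1 log2 unit (326), the 16 combined and Snf5-null libraries (465) and the fit without N1 and 78780 (258) stayed within 1.5 times. Leaving out 1 combined library gave 55 to 611 calls, 34 to 179 higher and 21 to 432 lower. In Snf5-null tumours DESeq2 called 2256 genes against 940 and leaving out 1 library gave 122 (without Myf5Cre N31) to 1959 (without TATCre N1); for the interaction DESeq2 called 1494 against 458 and the range was 60 to 1053, at the same libraries. Over the genes named, 8 values turned sign, all of genes that were not called: Myf5 to 7.11 without 78780 (-4.72 to 7.11 with 1 library left out) and 5.97 without N1 and 78780; Xist to -1.40 without N1 (-1.40 to 5.54) and -6.93 without N1 and N2; Ddx3y to 0.0027 without N49, 0.0249 without 78774, 0.1637 without N1 (-0.61 to 0.1637) and 0.3015 without N1 and N2. Of the named genes that were called, 27 of 71 kept the call in each fit that left out 1 combined library and tested them. Among these 27, Ccdc81 was tested in only 5 of the 8 fits. The call was lost by 42 genes without N4, 39 without N3, 31 without N2, 28 without N1 and 27 without N49. No paired analysis was possible because the 2 groups share no tag. When 1 library is left out the remaining 3 are assumed to vary as the other groups do. With 1 count worth 0.0535 to 0.0776 CPM, differences in genes below 1 CPM rest on few reads.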
